A study of Mus musculus with 9 samples.

Results

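Genes of secreted growth factors and of their binding proteins were followed in mouse striatum after MPTP. Members were the genes with a probe set of a single symbol whose name places them among the WNT, FGF, BMP, IGF, IGF binding protein, TGF-beta, TGF-alpha, PDGF or VEGF genes. There were 73 of them among 19935 named genes. In assembly GRCm38.p6 the RefSeq gene table holds 73 symbols of this form, and each had a probe set. Where a gene had several probe sets, which was the case for Wnt4, the brighter stood for the gene. The families comprised 19 WNT genes, 22 FGF genes, 11 BMP genes, 3 TGF-beta genes, Tgfa, 2 IGF genes, 7 IGF binding protein genes, 4 PDGF genes and 4 VEGF genes.

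RNA from striatum was hybridised to 9 arrays, 3 for each of 3 groups. Mice of the acute group received MPTP at 20 mg/kg in each of 4 intraperitoneal injections 2 h apart, and were sampled at 1 week. Mice of the chronic group received 4 mg/kg once daily for 20 days and were sampled at 8 weeks, after the same total of 80 mg/kg. Control mice received saline, 4 times 2 h apart, and were sampled at 1 week. MPTP is a compound whose metabolite is taken up by dopamine neurons and damages them, and the striatum holds the axon endings of those neurons. Regimen and sampling time differ together between chronic MPTP and the other groups and cannot be told apart. The labels give no strain, genotype, sex or age, and do not tie each array to its own animal, so the p-values reflect only how far these samples spread, which may be technical.

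Growth factors are released by cells and bind receptors on the same or neighbouring cells. WNT proteins act through Frizzled receptors and beta-catenin, FGF, IGF, PDGF, VEGF and TGF-alpha through receptor tyrosine kinases, and BMP and TGF-beta through serine/threonine kinase receptors and SMAD proteins. In the brain these families are known for patterning the embryo and for the survival of neurons, the growth of vessels and the reactions of glia in the adult. The label of secreted growth factors did not hold in full for every member. Fgf11, Fgf12, Fgf13 and Fgf14 are FGF homologous factors, which stay inside the cell and bind voltage-gated sodium channels. Bmp1 is secreted but is a metalloprotease that processes procollagen and the BMP inhibitor chordin. Fgf1 and Fgf2 are released from cells, though without a signal peptide.

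The promoters of the 4 members with the smallest p-values in chronic MPTP against control are shown first. Each sequence is the 250 bases before the start of the gene in RefSeq, GRCm38.p6, written 5′ to 3′ on the strand of the gene. Capitals mark matches, on either strand, to any of 8 motifs: the GC box GGGCGG, the TATA box TATAAA, the cyclic AMP element core TGACG, the AP-1 site TGANTCA, the EGR sites GCGGGGGCG and GCGTGGGCG, the hypoxia element core ACGTG and the BMP element GGCGCC.
Fgf11, chr11:69802281-69802530, minus strand: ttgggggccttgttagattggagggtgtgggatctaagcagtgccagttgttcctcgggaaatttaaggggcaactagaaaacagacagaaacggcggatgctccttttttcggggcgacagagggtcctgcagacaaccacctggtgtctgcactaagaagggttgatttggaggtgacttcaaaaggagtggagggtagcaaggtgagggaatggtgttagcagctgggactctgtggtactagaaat
Bmp6, chr13:38345466-38345715, plus strand: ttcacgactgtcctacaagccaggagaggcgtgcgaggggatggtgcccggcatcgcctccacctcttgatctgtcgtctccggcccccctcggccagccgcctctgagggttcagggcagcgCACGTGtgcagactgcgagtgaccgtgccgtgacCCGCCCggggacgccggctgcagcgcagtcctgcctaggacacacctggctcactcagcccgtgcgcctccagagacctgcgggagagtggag
Tgfa, chr6:86194972-86195221, plus strand: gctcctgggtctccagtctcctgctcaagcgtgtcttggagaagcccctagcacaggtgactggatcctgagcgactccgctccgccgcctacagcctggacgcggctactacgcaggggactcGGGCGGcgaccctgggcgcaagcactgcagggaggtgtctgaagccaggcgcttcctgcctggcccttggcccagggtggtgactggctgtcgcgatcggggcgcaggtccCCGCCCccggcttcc
Fgf10, chr13:118714449-118714698, plus strand: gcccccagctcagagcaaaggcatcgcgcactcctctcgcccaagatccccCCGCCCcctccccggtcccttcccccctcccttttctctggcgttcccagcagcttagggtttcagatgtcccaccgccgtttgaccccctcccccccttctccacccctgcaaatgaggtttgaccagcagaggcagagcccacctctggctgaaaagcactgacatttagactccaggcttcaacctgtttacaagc

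The Fgf11 sequence had a GC content of 51.2%, near the median of 52.4% over 32851 promoter sequences, and matched none of the motifs, which says only that these letters are not in this window. The Bmp6 sequence had a GC content of 68.8% and held 22 CpG dinucleotides against 5 in that of Fgf11. It matched ACGTG on both strands in the palindrome CACGTG, at bases -127 to -122 counted from the start, and the GC box. The GC box occurred at 2 places in the Tgfa sequence and at 1 in the Fgf10 sequence. Over all promoters 32.7% held a GC box and 16.6% held ACGTG. The other motifs were held by 12.4% (TATAAA), 17.8% (TGACG), 6.75% (TGANTCA), 2.57% (GCGGGGGCG), 0.536% (GCGTGGGCG) and 9.59% (GGCGCC). Of the 73 members, 57 had a promoter in the RefSeq table.

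Values are log2 intensities of probe sets, with medians between 6.85 and 6.90 on the 9 arrays. Striatal identity was checked through Ppp1r1b, encoding DARPP-32, which lay between 11.44 and 12.31, and Drd1, the D1 dopamine receptor, between 10.01 and 11.12. The arrays also differed in genes of adjoining tissue. The mean of 12 cerebral cortex marker genes, relative to each gene's mean over the arrays, was 1.02 on control 1, 0.62 on acute 1 and 0.93 on acute 2, and between -0.71 and -0.20 on the other 6. The mean of 11 choroid plexus markers was 0.86 on control 3 and 1.53 on acute 3, and at most 0.08 elsewhere. The mean of 12 thalamus and septum markers was highest on the same pair, at 1.52 and 0.84. The 10 striatal projection neuron markers averaged -0.50 to 0.11 in controls, -0.01 to 0.08 after acute and 0.20 to 0.33 after chronic MPTP. In bulk tissue, fewer cells of a type and less RNA per cell cannot be told apart.

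Of the 73 members, 64 had a mean above the filter on dim probe sets, log2 5.89, and were tested with limma among 16335 probe sets. The 9 below it were Wnt1, Wnt8b, Fgf6, Fgf7, Fgf15, Fgf21, Bmp10, Bmp15 and Igfbp1. Between acute MPTP and control, 0 members passed an adjusted p of 0.05, beside 0% of all probe sets tested. Chronic MPTP against control likewise gave 0 members, beside 0% of all. For chronic against acute MPTP the count was 0 members, beside 0.0122% of all, which was 2 probe sets. The smallest adjusted p of any member was 1, 0.876 and 0.877 in the 3 comparisons.

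Without adjustment, 1 of 64 members (1.56%) had a p under 0.05 in acute MPTP against control, beside 0.851% of all probe sets, and this was Fgf18, which was lower (beside 0.435%), with 0 higher (beside 0.416%). In chronic MPTP against control the count was 9 of 64 (14.1%), beside 5.51% of all. Higher were 6, Fgf11, Bmp6, Tgfa, Tgfb1, Tgfb3 and Fgf16, beside 2.85%, and lower were 3, Fgf10, Fgf12 and Igfbp3, beside 2.66%. In chronic against acute MPTP it was 7 of 64 (10.9%), beside 5.12% of all. Higher were 5, Fgf11, Bmp6, Bmp7, Tgfb3 and Fgf2, beside 2.36%, and lower were 2, Igfbp2 and Fgf10, beside 2.76%. These counts depended on the arrays and on the fit. In chronic MPTP against control the count was 3 without control 1 (beside 4.38% of all probe sets), chronic 3 (3.58%) or the 3 cortex-high arrays (3.27%), and 1 with the cortex and choroid plexus marker means as covariates (1.25%). In chronic against acute MPTP it was 2 without chronic 3 (3.07%), 3 without acute 1 (3.51%), and 0 with the covariates (1.73%). With the replicate number as a block, 6 of 64 members (9.38%) had such a p in acute MPTP against control, beside 4.21% of all probe sets. The block gave 11 (17.2%) in chronic MPTP against control, beside 13%, and 12 (18.8%) in chronic against acute MPTP, beside 13.9%, with 0 past the adjusted threshold. The 10 tested striatal projection neuron markers were all higher in chronic MPTP than in control, with a median difference of 0.55 and an unadjusted p under 0.05 for 7 (adjusted, 0). They were also all higher than control after acute MPTP (median 0.31) and all higher in chronic than in acute MPTP (median 0.21), each with 1 such p. These markers were not among the covariates, and their part in the members' differences was not tested. The counts against control and against acute MPTP share the chronic arrays. Members with a difference above 0 numbered 40, 31 and 25 of 64, beside 51.5%, 46.7% and 46.1% of all probe sets. The median difference of the members was 0.04, -0.0024 and -0.05 on the log2 scale, beside 0.0036, -0.01 and -0.01 over all probe sets tested. Members differed in both directions within most families, as the plot of every member on each array shows.

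**Figure D1:**
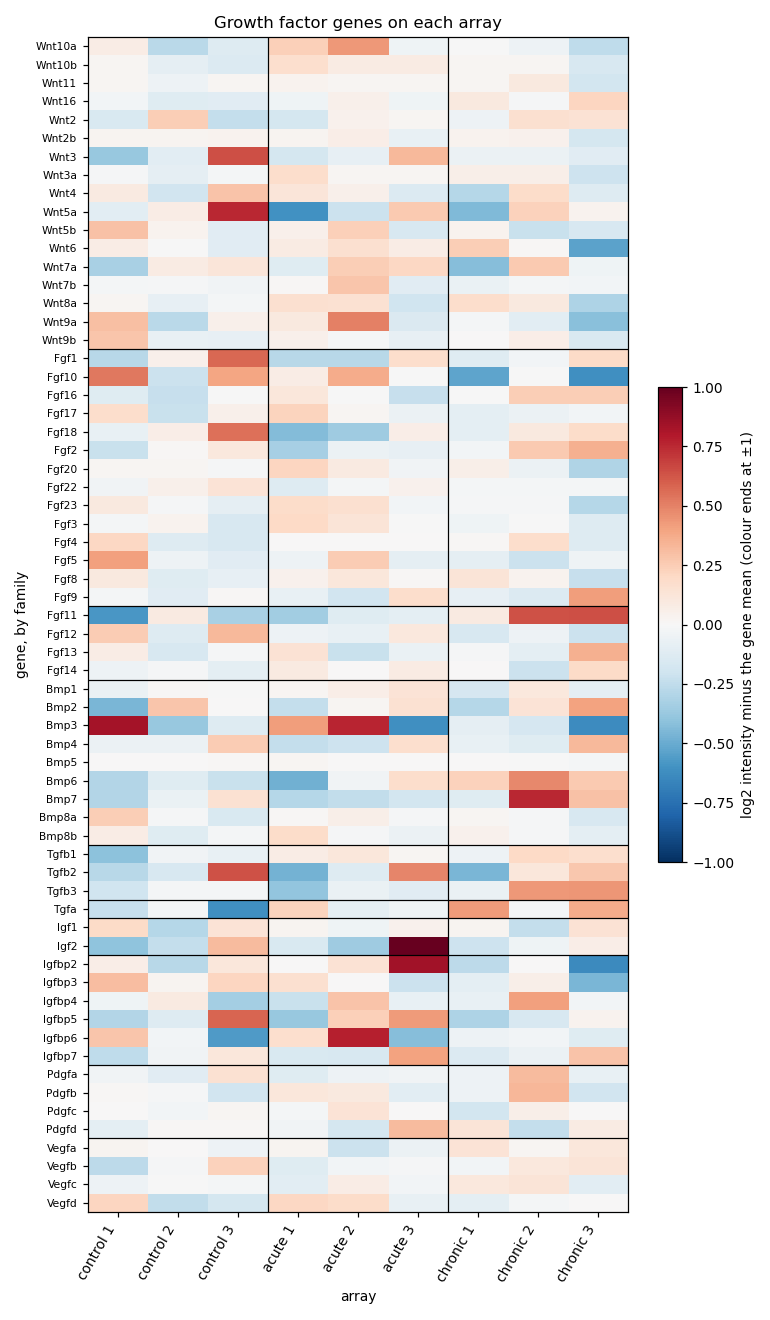
Log2 intensity of the 64 tested growth factor genes on each of the 9 arrays, as the difference from the gene's mean over the arrays (colour, ending at ±1), with families separated by lines. Bmp3 is high on control 1, acute 1 and acute 2, Igf2 and Igfbp2 are highest on acute 3, and Fgf11 and Bmp6 are higher on the 3 chronic arrays than on the 3 control arrays.

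Fgf11, which encodes an FGF homologous factor, had the smallest p of the members in chronic MPTP against control. Its probe set, 10387638, read 8.29, 8.96 and 8.55 on the control arrays, 8.53, 8.75 and 8.78 after acute MPTP, and 8.96, 9.51 and 9.52 after chronic MPTP. The chronic values lay above all 6 others, although chronic 1 exceeded control 2 by only the third decimal. The difference from control was 0.73 ± 0.20 (SE, 3 arrays per group; 95% interval 0.29 to 1.17; limma adjusted p = 0.876), a fold of 1.66. The difference from acute MPTP was 0.65 ± 0.20 (limma adjusted p = 0.877). With the cortex and choroid plexus marker means of each array as covariates, these differences were 0.47 and 0.25. The part of adjoining tissue in them was not tested further.

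The other FGF homologous factors differed less. Fgf12 read 10.40, 10.03 and 10.48 in controls, 10.10, 10.08 and 10.26 after acute, and 9.99, 10.10 and 9.94 after chronic MPTP. Control 2 lay inside the chronic range, and the chronic difference from control was -0.29 ± 0.13 (limma adjusted p = 0.899), or -0.06 with the marker covariates. Fgf13 lay between 9.45 and 10.02 and Fgf14 between 10.16 and 10.57 over the 9 arrays. For Fgf14 the 3 acute values, 10.38 to 10.46, lay above the control values of 10.27 to 10.36, with a difference of 0.11 ± 0.11 (limma adjusted p = 1). The extremes of Fgf14 were both chronic arrays, 10.16 and 10.57.

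Fgf10, a ligand of the IIIb form of FGF receptor 2, was the member with the lowest difference in chronic MPTP against control. It read 7.25, 6.50 and 7.11 in controls, 6.79, 7.09 and 6.71 after acute, and 6.19, 6.71 and 6.11 after chronic MPTP. Chronic 2 exceeded control 2, while all chronic values lay below the acute ones, at chronic 2 and acute 3 by the third decimal. The difference was -0.62 ± 0.22 from control (limma adjusted p = 0.876) and -0.53 ± 0.22 from acute MPTP (limma adjusted p = 0.877). With the marker covariates the values were -0.17 and 0.15, so the second turned in sign.

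Fgf2, the basic FGF of astrocytes and neurons, read 7.66, 7.90 and 7.99 in controls, 7.55, 7.83 and 7.80 after acute, and 7.86, 8.15 and 8.24 after chronic MPTP. The chronic arrays lay above the acute arrays and overlapped the controls. The difference from acute MPTP was 0.35 ± 0.14 (limma adjusted p = 0.877), and 0.31 with the covariates. Against the control of the same replicate number, Fgf2 was higher by 0.20, 0.25 and 0.25 on the chronic arrays and differed by -0.11, -0.07 and -0.19 on the acute arrays. Fgf1, the acidic FGF, was highest on control 3 at 9.87 and lay between 9.01 and 9.49 on the other arrays. Fgf9, a ligand made by neurons, lay between 7.24 and 7.85, with its highest value on chronic 3.

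Fgf18 was the member with the smallest p in acute MPTP against control. It read 7.21, 7.36 and 7.84 in controls, 6.86, 6.94 and 7.35 after acute, and 7.19, 7.39 and 7.47 after chronic MPTP. Acute 1 and acute 2 lay below every other array, and acute 3 lay inside the control range. The difference was -0.42 ± 0.18 (limma adjusted p = 1), and -0.24 without control 3. Against the control of the same number it was -0.36, -0.42 and -0.49 for the 3 acute arrays. Other members also kept 1 sign in this way, among them Wnt5a at -0.50, -0.29 and -0.49. For most members such differences from control were mixed in sign, after acute as after chronic MPTP. They were not counted over all probe sets. Fgf16 was higher by 0.28 ± 0.12 in chronic MPTP against control (limma adjusted p = 0.899), with 7.18, 7.43 and 7.43 on the chronic arrays and 7.06, 6.95 and 7.18 on the controls. Of the 18 tested FGF genes, 8 were higher and 10 lower than control after chronic MPTP, and 10 and 8 after acute MPTP.

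Bmp6, a BMP ligand, read 7.94, 8.11 and 8.01 in controls, 7.75, 8.20 and 8.41 after acute, and 8.47, 8.72 and 8.50 after chronic MPTP. The chronic values were higher than all others, and the acute arrays were the most spread. Bmp6 differed by 0.54 ± 0.16 from control (95% interval 0.18 to 0.90; limma adjusted p = 0.876), a fold of 1.45, and by 0.44 ± 0.16 from acute MPTP (limma adjusted p = 0.877). The marker covariates left these at 0.58 and 0.51. With the 3 cortex-high arrays left out they were 0.50 and 0.15, the second against acute 3 alone. Without acute 1 the second was 0.26.

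Bmp7, another BMP ligand, read 8.00, 8.23 and 8.45 in controls, 8.02, 8.05 and 8.12 after acute, and 8.18, 9.05 and 8.59 after chronic MPTP. The chronic arrays lay above the acute arrays, with chronic 1 inside the control range. The difference from acute MPTP was 0.55 ± 0.20 (limma adjusted p = 0.877), 0.55 with the covariates and 0.33 without chronic 2. Bmp4 lay between 7.10 and 7.66, highest on chronic 3, control 3 and acute 3. Bmp3, which encodes an antagonist of other BMPs, had the largest SD of the members over the 9 arrays, 0.55. It read 7.56 on control 1, 7.14 on acute 1 and 7.48 on acute 2, and 6.09 to 6.64 on the other 6, the same division as the cortex markers. Bmp1 was higher on the 3 acute arrays (8.59, 8.64 and 8.71) than on the controls (8.50, 8.58 and 8.57), by 0.09 ± 0.09 (limma adjusted p = 1), or 0.06 without acute 3.

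The 3 TGF-beta genes encode ligands that are held latent in the matrix until released. Tgfb1 read 6.97, 7.34 and 7.30 in controls, 7.45, 7.49 and 7.39 after acute, and 7.33, 7.58 and 7.54 after chronic MPTP. All acute arrays lay above the controls, while chronic 1 lay just below control 2. Its differences from control were 0.24 ± 0.12 after acute (limma adjusted p = 1) and 0.28 ± 0.12 after chronic MPTP (limma adjusted p = 0.899). Without control 1, the lowest of the 9 arrays, the values were 0.13 and 0.16, and the chronic one was 0.14 with the covariates. Without the 3 cortex-high arrays, control 1 among them, the acute value was 0.07, from acute 3 alone.

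Tgfb3 read 8.05, 8.23 and 8.23 in controls, 7.85, 8.18 and 8.13 after acute, and 8.18, 8.68 and 8.69 after chronic MPTP. Chronic 2 and chronic 3 stood above the other 7 arrays, and chronic 1 lay among them. The difference was 0.35 ± 0.15 from control (limma adjusted p = 0.899) and 0.46 ± 0.15 from acute MPTP (limma adjusted p = 0.877), and with the covariates 0.34 and 0.46. Tgfb2 ran from 7.40 to 8.51 and was highest on control 3 and acute 3, the arrays high in choroid plexus and thalamus genes.

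Tgfa, a ligand of the EGF receptor, read 9.59, 9.80 and 9.21 in controls, 10.04, 9.73 and 9.78 after acute, and 10.24, 9.80 and 10.19 after chronic MPTP. Chronic 2 and control 2 had the same value to 2 decimals, and the other chronic arrays lay above every control and acute array. The difference from control was 0.54 ± 0.17 (95% interval 0.15 to 0.94; limma adjusted p = 0.876), a fold of 1.46. It was 0.29 with the marker covariates. After acute MPTP the difference was 0.32 ± 0.17 (limma adjusted p = 1), and 0.15 without control 3.

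**Figure D2:**
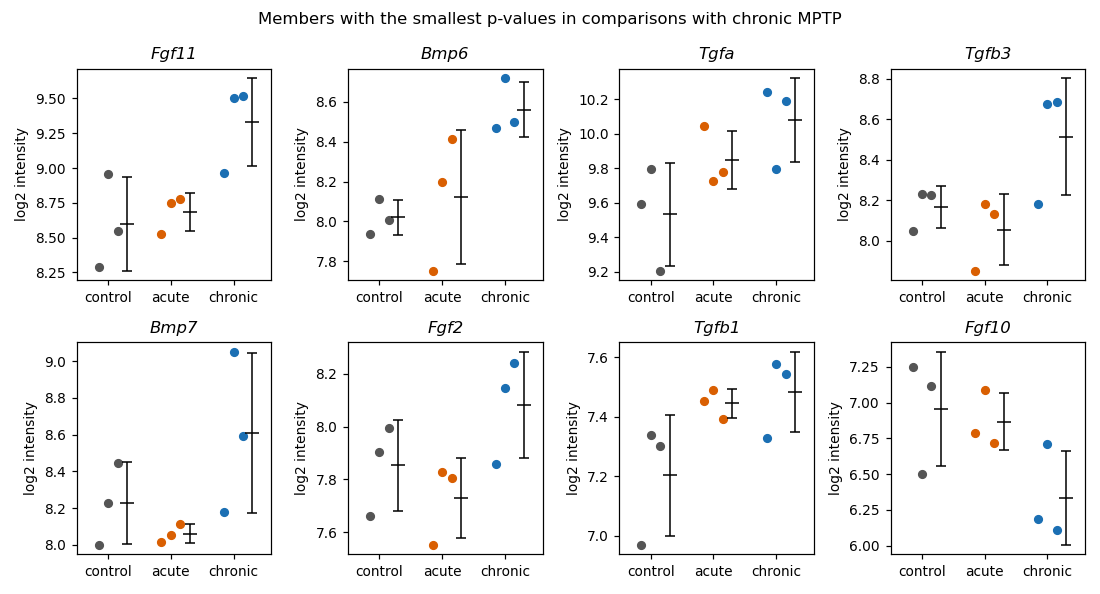
Log2 intensity of 8 members on each array, by group (points in replicate order), with the mean and SD of 3 arrays beside them and a separate axis range for each gene. Chronic MPTP lies apart from both other groups for Fgf11 and Bmp6, and from acute MPTP but not from control for Bmp7, Fgf2 and Fgf10.

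Groups that did not overlap, in either direction, made up 3.56% of all probe sets in acute MPTP against control, 6.55% in chronic MPTP against control and 8.63% in chronic against acute MPTP. The acute arrays lay above the controls for 5 of 64 members, beside 2.06% of all probe sets, and below them for 0, beside 1.49%. These 5 were Tgfb1, Wnt10b, Wnt3a, Fgf14 and Bmp1. The chronic arrays lay above the controls for 3 members, Fgf11, Bmp6 and Wnt16, beside 2.88%, and below them for 0, beside 3.67%. They lay above the acute arrays for 4 members, Fgf11, Bmp6, Bmp7 and Fgf2, beside 3.61%, and below them for 2, Fgf10 and Wnt10b, beside 5.01%.

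The IGF genes encode hormones that signal through the IGF1 receptor, and the IGFBP genes encode carriers that bind them. Igf1 lay between 6.42 and 6.90 and differed by -0.03 ± 0.14 between chronic MPTP and control (limma adjusted p = 0.990; 95% interval -0.36 to 0.29). Igf2, made in adult brain mainly by choroid plexus and meninges, read 8.16, 8.33 and 8.88 in controls, 8.41, 8.21 and 9.58 after acute, and 8.36, 8.52 and 8.63 after chronic MPTP. Acute 3 and control 3 were the highest, the same arrays on which the choroid plexus markers were high. Ttr, the main product of choroid plexus, read 13.37 and 12.56 there and between 6.19 and 10.85 elsewhere. The acute difference of Igf2 from control was 0.28 ± 0.33 (limma adjusted p = 1), and it ran from -0.14 without acute 3 to 0.54 without acute 2.

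Igfbp2 read 7.32, 6.98 and 7.37 in controls, 7.26, 7.40 and 8.09 after acute, and 6.99, 7.26 and 6.62 after chronic MPTP. Acute 3 was the highest of the 9 and chronic 3 the lowest. The difference between chronic and acute MPTP was -0.63 ± 0.24 (limma adjusted p = 0.877). With the marker covariates it was -0.12, and without acute 3 it was -0.37. Without the cortex-high arrays it was -1.14, against acute 3 alone. Igfbp3 was lower in chronic MPTP than in control by -0.35 ± 0.15 (limma adjusted p = 0.899), with 7.13, 7.29 and 6.77 against 7.54, 7.25 and 7.45, with -0.23 under the covariates and -0.20 without chronic 3. Igfbp5 was highest on control 3 (10.51) and acute 3 (10.35) and lay between 9.55 and 10.16 elsewhere. Igfbp6 showed the opposite order, with its lowest values on those arrays (6.64 and 6.78) and its highest on acute 2 (7.98). Igfbp4 lay between 8.46 and 9.22, with its highest value on chronic 2.

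The 17 tested WNT genes had no unadjusted p under 0.05 in any comparison. Of them 11 were higher than control after acute MPTP and 6 after chronic MPTP, and 3 were higher in chronic than in acute MPTP. Wnt10a read 7.22, 6.88 and 7.02 in controls and 7.39, 7.59 and 7.11 after acute MPTP. Acute 3 lay below control 1, and the difference was 0.32 ± 0.14 (limma adjusted p = 1), or 0.21 without acute 2. Wnt10b was higher by 0.18 ± 0.09 in acute MPTP than in control (limma adjusted p = 1), with 6.40, 6.31 and 6.31 against 6.25, 6.15 and 6.10, and its chronic values were 6.25, 6.25 and 6.07.

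Wnt3a was higher on the acute arrays by 0.11 ± 0.10 (limma adjusted p = 1), and by 0.06 without acute 1. Wnt16 read 6.10, 5.99 and 6.22 after chronic MPTP against 5.97, 5.88 and 5.89 in controls. All chronic values exceeded the controls, in a range close to the filter, and the difference was 0.19 ± 0.09 (limma adjusted p = 0.911). Wnt5a, a ligand of the beta-catenin independent branch, ran from 6.29 on acute 1 to 7.65 on control 3. Wnt7a, a ligand known for vessel formation in the brain, ran from 7.38 to 8.06, and its relative Wnt7b from 7.37 to 7.76. Neither set a group apart.

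For growth factors of vessels and of oligodendrocyte precursors the estimated differences from control were small. Vegfa, the main angiogenic ligand, read 8.82, 8.80 and 8.74 in controls, 8.82, 8.58 and 8.74 after acute, and 8.93, 8.82 and 8.91 after chronic MPTP. Chronic 2 lay below control 1. The chronic difference from control was 0.10 ± 0.09 (limma adjusted p = 0.967; 95% interval -0.10 to 0.29). Pdgfa, a mitogen of oligodendrocyte precursors, lay between 9.59 and 10.03, with its highest value on chronic 2. The 4 PDGF and 4 VEGF genes had no unadjusted p under 0.05 in any comparison, and their differences from control lay between -0.07 and 0.18. Their 95% intervals were wider, from -0.34 for Pdgfa to 0.47 for Vegfd, both in acute MPTP against control. Larger differences are thus not excluded.

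**Figure D3:**
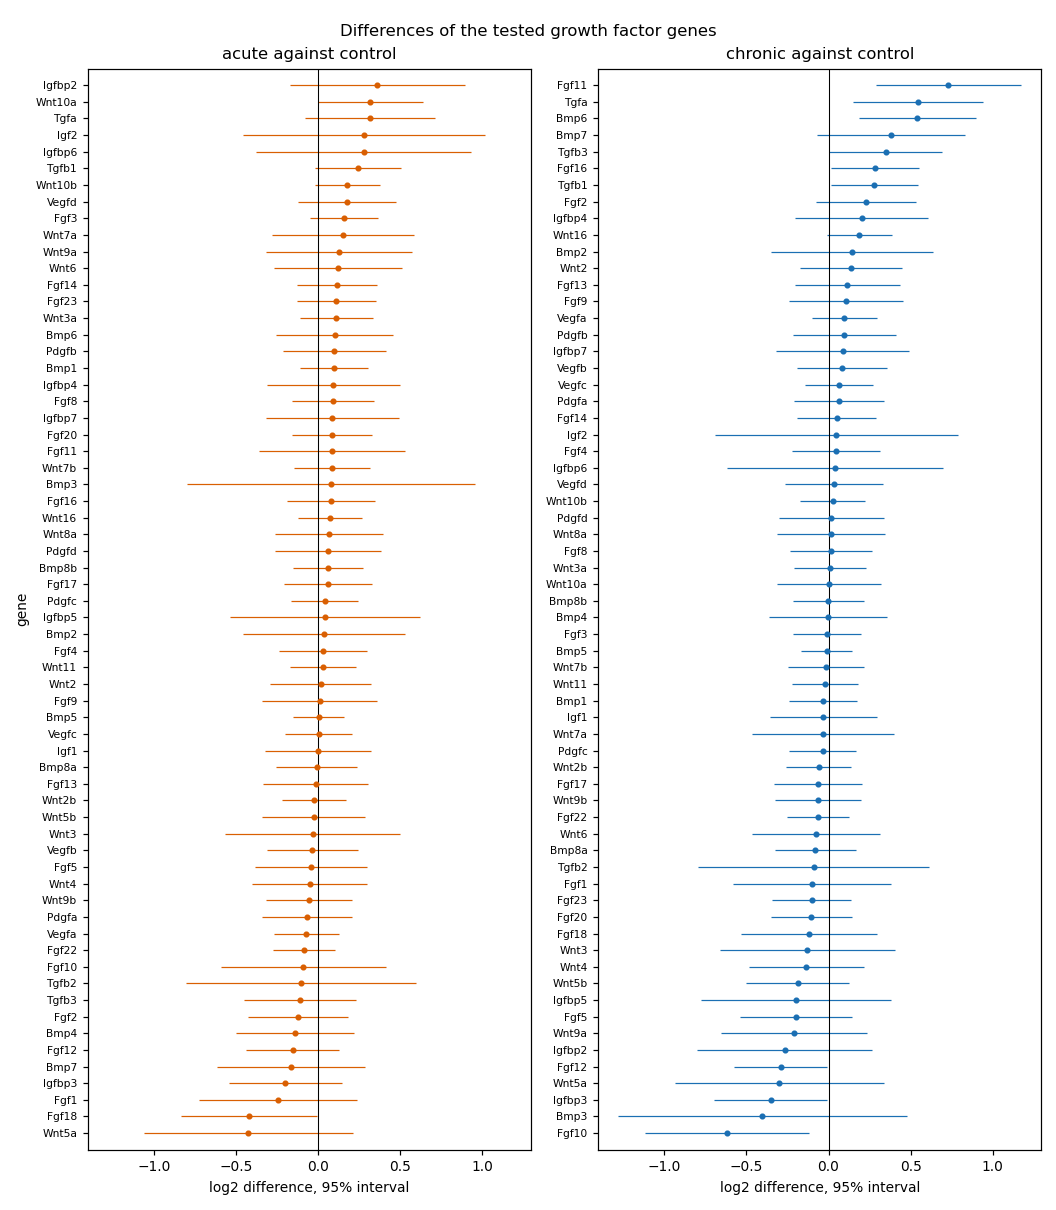
Log2 difference of each of the 64 tested members from control after acute (left) and chronic MPTP (right), sorted by size within each panel, with 95% intervals of the limma fit over 9 arrays. The interval lies off 0 for Fgf18 in acute MPTP, and for 9 members in chronic MPTP, with Fgf11 at 0.73 the highest and Fgf10 at -0.62 the lowest.

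Members were also compared between the arrays high in genes of adjoining tissue and the rest. On the 3 arrays high in cortex genes, 7 of 64 members were higher than on the other 6 arrays without overlap, beside 5.15% of all probe sets. They were Bmp3, Fgf23, Igfbp6, Vegfd, Wnt10a, Wnt5b and Wnt9a. Another 4, Bmp7, Fgf1, Fgf22 and Igfbp7, were lower there, beside 3.31%. On the 2 arrays high in choroid plexus genes, Igf2, Igfbp5, Tgfb2, Wnt3 and Wnt5a were higher than on the other 7, beside 6.1%, and Igfbp6 was lower, beside 4.38%. These 5 and 1 of 64 members made up shares close to or below those of all probe sets. The range over the 9 arrays reached 1 on the log2 scale for 11 of 64 members (17.2%) and for 8.2% of all probe sets. No chronic array was among the 5 arrays high in these genes, and the part of adjoining tissue in the group differences was not tested beyond the covariates.

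**Figure D4:**
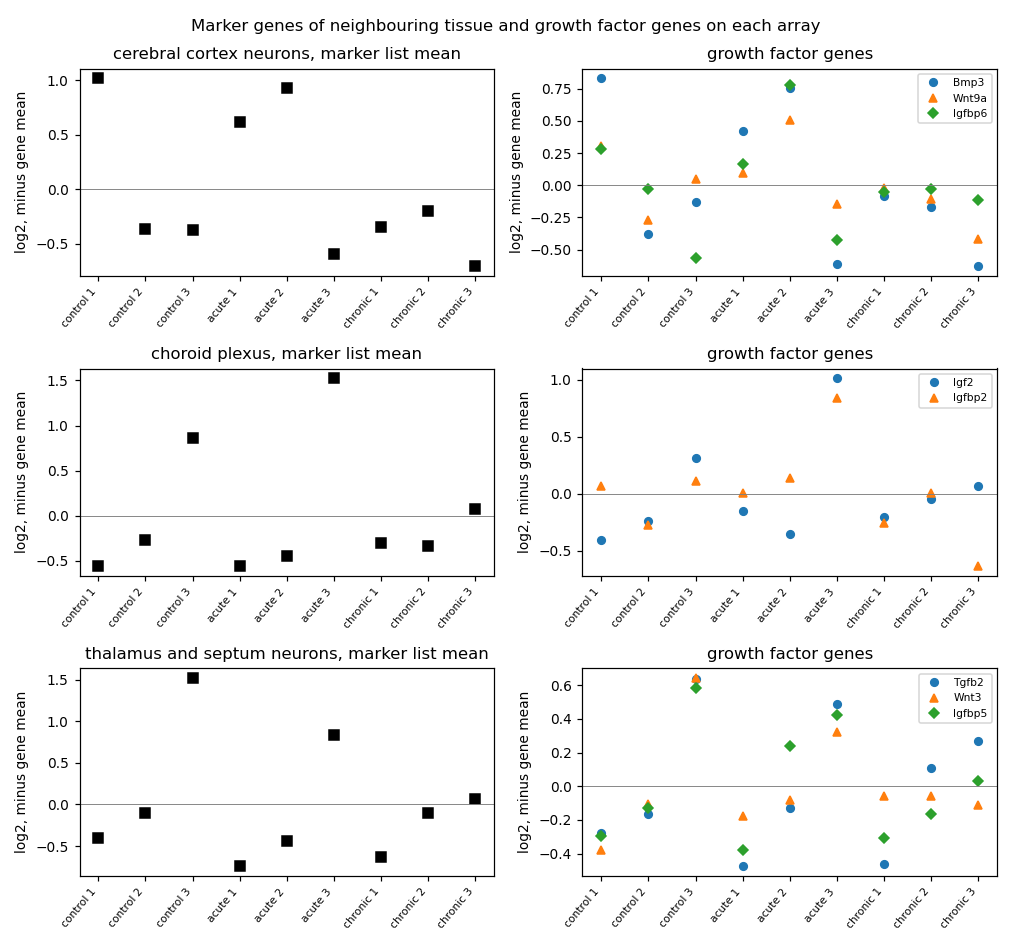
Mean of the marker genes of cerebral cortex, choroid plexus, and thalamus and septum on each array (left) and growth factor genes (right), as log2 differences from the gene's mean over 9 arrays. The cortex list is high on control 1, acute 1 and acute 2, as is Bmp3, and the choroid plexus list is high on control 3 and acute 3, as is Igf2.

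Receptors, inhibitors and targets of these pathways were examined through 11 lists of 128 genes, of which 118 were tested. An unadjusted p under 0.05 was found for 0 of them in acute MPTP against control, for 7 (5.93%) in chronic MPTP against control and for 7 (5.93%) in chronic against acute MPTP. An adjusted p under 0.05 was found for 0 in each. These shares stood beside 0.851%, 5.51% and 5.12% of all probe sets. Single genes of these lists are given without the marker covariates, and the part of adjoining tissue in their differences was not tested.

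Among 9 receptors of BMP and TGF-beta, 7 were higher and 2 lower in chronic MPTP than in control. Acvr1, a BMP type I receptor, differed by 0.30 ± 0.12 (limma adjusted p = 0.898), and Acvrl1, the endothelial ALK1 receptor, by 0.47 ± 0.20 (limma adjusted p = 0.899). In acute MPTP against control these were 0.20 ± 0.12 and 0.21 ± 0.20, and against acute MPTP the smallest p belonged to Bmpr2, at 0.21 ± 0.10. Of 14 inhibitors and latency proteins, 5 were higher and 9 lower than control after chronic MPTP. Lrrc32, which holds latent TGF-beta at the cell surface, differed by 0.52 ± 0.18 (limma adjusted p = 0.876) from control and by 0.56 ± 0.18 (limma adjusted p = 0.877) from acute MPTP. Chrd, the BMP inhibitor chordin, differed by -0.29 ± 0.11 (limma adjusted p = 0.877) from acute MPTP and by -0.16 ± 0.11 from control. In acute MPTP against control the smallest p of this list belonged to Ltbp2, at 0.20 ± 0.14, and Chrd, at 0.13 ± 0.11.

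The 10 tested SMAD targets were split, with 5 higher and 5 lower after chronic MPTP. Smad7, an inhibitory SMAD induced by TGF-beta and BMP, differed by 0.39 ± 0.15 (limma adjusted p = 0.898) from control and by 0.41 ± 0.15 (limma adjusted p = 0.877) from acute MPTP. Id1 was higher than control by 0.22 ± 0.09 (limma adjusted p = 0.899), whereas Id3, from the same family of BMP targets, was lower than in acute MPTP, at -0.42 ± 0.17 (limma adjusted p = 0.877). Acute MPTP against control gave 0.25 ± 0.17 for Id3 and 0.13 ± 0.11 for Smad6.

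Of 11 FGF and ERK targets, 8 were higher and 3 lower in chronic MPTP than in control. Spry2, a feedback inhibitor of receptor tyrosine kinases, differed by 0.39 ± 0.16 (limma adjusted p = 0.899) from control and by 0.36 ± 0.16 (limma adjusted p = 0.877) from acute MPTP. Dusp6, the ERK phosphatase, differed by 0.39 ± 0.16 from acute MPTP (limma adjusted p = 0.877), and by -0.29 ± 0.16 between acute MPTP and control. Etv5, a transcription factor downstream of FGF, was at 0.19 ± 0.16 in chronic and 0.26 ± 0.16 in acute MPTP against control. The 6 FGF receptors and co-receptors had no p under 0.05. Their smallest p-values belonged to Fgfr3 (-0.17 ± 0.12) and Fgfr4 (-0.06 ± 0.08) in chronic MPTP against control. In acute MPTP they belonged to Fgfr1 (-0.18 ± 0.26) and Fgfrl1 (-0.09 ± 0.13), and in chronic against acute MPTP to Fgfr3 (-0.20 ± 0.12) and Fgfrl1 (0.17 ± 0.13).

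The lists of the WNT pathway held 1 gene with an unadjusted p under 0.05. This was Rspo1, an R-spondin that strengthens WNT signals, at 0.91 ± 0.28 in chronic against acute MPTP (limma adjusted p = 0.877) and 0.56 ± 0.28 in chronic MPTP against control. Its relative Rspo3 was at -0.43 ± 0.20 and -0.36 ± 0.20. Of 16 WNT inhibitors, 4 were higher and 12 lower in chronic MPTP than in control, with the smallest p for Kremen1 (0.37 ± 0.17) and Sfrp2 (-0.49 ± 0.23). Sfrp2 was at -0.50 ± 0.23 and Kremen2 at 0.18 ± 0.12 in acute MPTP against control, and Sost at -0.29 ± 0.14 and Frzb at -0.62 ± 0.33 in chronic against acute MPTP. Frzb read 7.45, 7.14 and 7.46 on control 1, acute 1 and acute 2, the cortex-high arrays, and 6.27 to 6.53 on the others. Sfrp2 was highest on control 3, at 7.26, the array highest in thalamus and septum markers.

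Among 15 WNT receptors the smallest p-values in chronic MPTP against control belonged to Ror1 (0.36 ± 0.18) and Fzd2 (0.20 ± 0.14). In acute MPTP they belonged to Fzd7 (-0.39 ± 0.23) and Ror1 (0.28 ± 0.18), and in chronic against acute MPTP to Fzd2 (0.26 ± 0.14) and Ror2 (-0.22 ± 0.12). Of the agonists, Ndp, encoding norrin, and Lgr4, an R-spondin receptor, were at -0.26 ± 0.15 and -0.19 ± 0.12 in acute MPTP against control. Among 7 beta-catenin targets Rnf43 and Nkd2 were at 0.25 ± 0.15 and -0.08 ± 0.08 in chronic MPTP against control. Nkd2 and Nkd1 were at -0.07 ± 0.08 and -0.08 ± 0.17 in acute MPTP, and Rnf43 and Nkd1 at 0.20 ± 0.15 and 0.21 ± 0.17 in chronic against acute MPTP.

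Of 11 genes in the list of PDGF, VEGF and EGF receptors, which also holds other EGF family ligands, Hbegf, encoding heparin-binding EGF, had a p under 0.05. It differed by 0.38 ± 0.13 (limma adjusted p = 0.876) between chronic MPTP and control and by 0.27 ± 0.13 from acute MPTP. Nrp2, a VEGF co-receptor, was at -0.78 ± 0.40 in chronic MPTP against control. It was highest on control 3, at 8.98, and lay between 7.07 and 8.36 on the other arrays. In acute MPTP against control Pdgfrb was at 0.15 ± 0.08 and Egfr, the receptor of TGF-alpha, at -0.12 ± 0.10, and Egfr was at 0.15 ± 0.10 in chronic against acute MPTP. The 9 IGF receptors and binding-protein proteases had no p under 0.05. Insr, the insulin receptor, was at 0.21 ± 0.11 and 0.24 ± 0.11 in chronic MPTP against control and against acute MPTP. Irs1, an adaptor of that receptor, was at -0.24 ± 0.21 in chronic and -0.27 ± 0.21 in acute MPTP against control. Irs2 was at -0.29 ± 0.27 in acute MPTP against control, and Igfals, the carrier subunit of IGF complexes, at -0.22 ± 0.12 in chronic against acute MPTP.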

How the data were processed

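Total RNA of mouse striatum was labelled with biotin and measured on 9 single-colour arrays, per the labels' protocols. The deposited values are log2 intensities of 28815 probe sets; the authors' background correction, normalization and summary are not given in the sources used here, and the log2 scale was read from the values. Probe sets were named from the platform annotation: 21780 had 1 gene symbol, 1605 several and 5430 none. Those with 1 symbol and a mean above the 25th percentile were tested, 16335 in all. A group-means model over 9 arrays was fitted with limma 3.58.1 in R 4.3.3 (lmFit, eBayes), with two-sided tests and Benjamini-Hochberg adjustment over all 16335 probe sets in each of 3 comparisons, and a threshold of 0.05. The fit was also run on simulated data with independent noise on each array. That simulation held no pairing of arrays and no differences in adjoining tissue, so it cannot speak to them. The number of arrays limits the precision: standard errors of members ran from 0.07 to 0.39.

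The members, lists and tests were chosen with earlier results of these data known. Named were the 4 members with the smallest p in each comparison, members without overlap between groups, the 10 with the largest SD, 23 members given by name, and the 2 genes with the smallest p of each pathway list; the first genes of the marker lists were to be named too, and these lists are given here mostly by their means. Other members named were chosen after their values were seen. Of the first genes of the marker lists, Tcf7l2 ran from 7.59 to 10.46, Folr1 from 6.63 to 8.41, Tbr1 from 5.69 to 9.89, Slc17a7 from 8.14 to 12.28 and Slc17a6 from 6.42 to 10.59. Lists of meninges (Col1a1, Col1a2), endothelium (Cldn5, Pecam1), astrocytes (Gfap, Aqp4), microglia (Aif1, Cx3cr1) and oligodendrocytes (Mbp, Mog) had array means between -0.43 and 0.30.

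Same-numbered arrays of different groups deviated together (r from 0.16 to 0.67 in 9 pairs, against -0.61 to 0.18 in 18 others), so the replicate numbers count as pairing the arrays, from the values and not from the labels. A fit with the number as a block was run beside each test. The SE, intervals and adjusted p-values printed for single genes come from the fit without the block and leave the pairing out of account. Any 2 arrays shared at most 6.01% of their values. Alternatives covered each array left out, the filter, normalization, variance trend, samples fitted, several probe sets of a gene averaged, and the cortex and choroid plexus means as covariates.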

Additional observations from a re-analysis of the deposited data

How the results depend on the processing

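No alternative put a member past an adjusted p of 0.05 in limma, so the count of 0 stood in all of them. Of 38 gene differences followed through the alternatives, 29 kept their sign throughout. Most of the 38 had been chosen for a small p or for groups without overlap, which favours a stable sign. The others were differences of Igf1, Igf2, Igfbp2, Tgfa and Vegfa. With the replicate block, members with an unadjusted p under 0.05 numbered 6, 11 and 12 (acute against control, chronic against control, chronic against acute), beside 4.21%, 13% and 13.9% of all probe sets, and it changed no other call.

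In acute against control, 1 member had such a p. With no filter the count was 2 of the 64 (beside 1.31% of all probe sets), or 3 of all 73 members. It was 3 with an intensity trend (1.05%), and 2 with median centring (0.765%) or quantile normalization (0.833%). It was also 2 without the arrays high in choroid plexus genes (0.686%). With only the compared groups it was 0 (0.979%), and with the tissue covariates 6 (3.48%). In chronic against control, the filter at the median left 31 members tested. Of these, 4 (12.9%, beside 6.02% of all probe sets) had such a p. The share was 14.1% (beside 5.51%) with the filter at the 25th percentile. Of the 64 members, the count was 5 with only the compared groups (beside 3.88%), 1 with the covariates (1.25%) and 3 with the choroid-high arrays left out (2.41%). In chronic against acute it was 0 with the covariates (beside 1.73%), 8 with an intensity trend (5.07%) and 9 without the choroid-high arrays (5.61%). Of the 31 members left there by the filter at the median, 5 (16.1%, beside 4.87%) had such a p. The sets of choroid-high and cortex-high arrays were chosen after seeing the data.

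Leaving out 1 array gave 0 to 3, 3 to 8 and 2 to 11 such members. Over all probe sets the shares ran from 0.349% to 2.48%, 2.85% to 7.87% and 2.38% to 8.45%. Chronic against control fell from 9 to 3 without control 1 (beside 4.38%) or chronic 3 (3.58%), 4 without acute 2 (4.71%) and 5 without control 3 (2.85%). Chronic against acute went from 7 to 11 without acute 3 (beside 5.97%), 4 without chronic 2 (6.16%), 3 without acute 1 (3.51%) and 2 without chronic 3 (3.07%). Acute against control went from 1 to 3 without control 1 (beside 2.44%) or control 2 (2.48%), and 2 without acute 3 (2.12%). It was 0 without control 3 (0.349%), acute 2 (0.441%), chronic 1 (0.784%) or chronic 2 (0.9%). Members without overlap between groups numbered 5 to 17, 3 to 12 and 6 to 22. Beside them stood 3.56% to 17.6%, 6.55% to 19.3% and 8.63% to 24.2% of all probe sets. These shares rose wherever a compared group lost an array. Members higher numbered 34 to 42, 25 to 34 and 24 to 29, and their median differences were 0.0078 to 0.061, -0.0338 to 0.0194 and -0.0696 to -0.0153.

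Members without overlap in acute against control were 3 with the filter at the median, 18 (28.1%, beside 20.7% of all probe sets) without the choroid-high and 33 (51.6%, beside 56.8%) without the cortex-high arrays. The filter at the median left 31 members tested, and its 3 (9.68%) stood beside 2.66% of all probe sets. In chronic against control, members without overlap were 6 with median centring (9.38%, beside 7.81%) and 7 with quantile normalization (10.9%, beside 8.45%). They were also 6 without the choroid-high (beside 11%) and without the cortex-high arrays (beside 15.2%). In chronic against acute they were 22 (34.4%, beside 23%) and 25 (39.1%, beside 37.9%). The groups are smaller there, and without the cortex-high arrays the acute group is acute 3 alone. With the filter at the median, which tests fewer genes, 18 and 19 members were higher than control after acute and chronic MPTP. With the covariates 39 members were higher in chronic than in acute.

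The members' median in acute against control was 0.0595 with no filter, 0.0026 with the covariates and 0.0207 without the cortex-high arrays. In chronic against control it was 0.0159 with median centring, 0.0146 with quantile normalization, 0.0646 with the filter at the median, 0.0486 with the covariates and 0.0194 without the choroid-high arrays. In chronic against acute it was 0.0977 with the filter at the median, -0.0072 with quantile normalization, 0.0444 with the covariates and -0.0189 without the cortex-high arrays. Over all probe sets, calls at an adjusted p of 0.05 in acute against control were 1 with only the compared groups (0 to 1 leaving out 1 array, 0 to 2 in chronic against control). In chronic against acute they were 1 with no filter or only the compared groups, 0 with the covariates or without either set of arrays, and 1 to 5 leaving out 1 array.

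Differences that turned in sign were, with the covariates, Igf1 (0.17 in chronic against control, 0.28 in chronic against acute), Igfbp2 (0.0545 in chronic against control), Fgf10 (0.15) and Tgfa (-0.16), both in chronic against acute. Igf1 in acute against control was 0.0036 with median centring, 0.0437 without the choroid-high and 0.12 without the cortex-high arrays. Igf1 in chronic against control was 0.0295 and 0.0568 without these sets. Igf2 was 0.19 in chronic against acute without the choroid-high arrays and -0.10 in chronic against control without the cortex-high arrays. Leaving out 1 array, Igf1 ran from -0.15 to 0.0881, -0.18 to 0.0777 and -0.12 to 0.0781, and Igf2 from -0.14 to 0.54, -0.10 to 0.26 and -0.49 to 0.19. The cause was not tested. Signal near background limits the 9 members below the filter and members not far above it, Wnt16 and Wnt10b among them.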
